A study of Homo sapiens with 6 samples.

Results

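The 10 genes described here encode the core of the WNT and GSK3 signaling machinery: the co-receptor LRP6, the receptor-clearing ligase ZNRF3, the relay protein DVL2, the scaffolds AXIN1 and APC, the kinases GSK3A, GSK3B and CSNK1A1, beta-catenin itself (CTNNB1), and FBXW7, a ubiquitin ligase subunit that reads marks left by GSK3. They were chosen by gene symbol, and all 10 are among the 11911 genes of the deposited table and the 11892 tested. RNA was sequenced from RS4;11, an established human B-cell precursor acute lymphoblastic leukemia line with the KMT2A::AFF1 fusion. The titles give 3 libraries without asparagine and 3 with it, and the series sets RNA extraction at 16 hours after withdrawal. The treatment entry, identical for all 6 samples, names asparagine-free medium with dialyzed serum, and the column names of the 2 arms, which may abbreviate asparaginase-treated and untreated, do not settle how the control cells were handled. The arm labelled as lacking asparagine is called asparagine-depleted here. Whether the 3 libraries of an arm were grown as separate cultures is not stated, and p-values therefore rest on a spread among libraries that may be technical.

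In cells without a WNT signal, AXIN1 and APC hold beta-catenin while CSNK1A1 and then GSK3 phosphorylate it, and the ligase adaptor beta-TrCP marks the phosphorylated protein for destruction. WNT binding to Frizzled and LRP6 recruits Dishevelled and AXIN1 to the membrane, and beta-catenin then accumulates and activates genes with TCF and LEF factors. GSK3 phosphorylates many other proteins for degradation, some of them through FBXW7, and WNT signals can spare those proteins as well. In acute leukemia, inhibition of GSK3 has been reported to sensitize cells to asparaginase, the drug that removes asparagine from blood. Apart from the activation of genes, these steps act on proteins, whereas the values here are RNA levels.

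The line's identity was checked against markers. All 9 B-cell precursor markers were in the table, with a summed level of 3007 to 3916 CPM in depleted libraries and 3826 to 4089 CPM with asparagine, led by PAX5, CD79A and IGLL1. Of the other marker lists, 0 of 5 T-cell, 1 of 5 myeloid (CSF1R), 0 of 3 erythroid and 2 of 4 stromal genes (COL1A1 and PDGFRB) were in the table. The reads behind the values ranged from 29971364 to 40577308 per depleted library and from 36611101 to 51127073 per library with asparagine. Depleted library 1 stood apart. Its Pearson correlation across 11892 genes, which are not independent replicates, was 0.940 and 0.933 with depleted libraries 2 and 3, whereas those correlated at 0.996 with each other. The gap followed the GC content of the transcripts. In the highest of 5 equal GC classes, depleted libraries 1, 2 and 3 had median log2 differences from the libraries with asparagine of -0.09, -0.86 and -0.89, and in the lowest class they had 0.03, 0.81 and 0.87. Each of the core genes is therefore given by library, without depleted library 1, and after a GC correction. This correction removes the trend from each library. Most relatives and listed genes below are given as group means or by name only. For them these checks are mostly not shown, and their changes may depend on depleted library 1 or on the trend. Whether the trend arose in the cells or in library preparation was not tested.

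After asparagine depletion, RNA of CSNK1A1, GSK3B and FBXW7 rose 1.68- to 1.90-fold and RNA of ZNRF3 fell 2.06-fold. The remaining 6 genes did not pass the test (limma on log2(CPM + 1), Benjamini-Hochberg adjusted p under 0.05 over all 11892 genes). The 3 higher genes of 10 compare with 25.1% of all genes called higher, and the 1 lower gene with 26.2% called lower. The 4 of 10 called in either direction compare with 51.3% of all genes. The groups did not overlap for 6 of the 10, against 61.1% of all genes tested. In bulk RNA, fewer cells expressing a gene and less RNA per cell cannot be told apart. By these shares the 10 genes changed no more often than the rest of the transcriptome, and what follows describes which of them moved and in which libraries. Without depleted library 1 there were 4 higher and 4 lower members, where 40.5% of all genes were called higher and 41.3% lower (81.8% in all). With depleted library 1 as the only depleted one there were 2 higher and 3 lower, where 27.1% were called higher and 26.9% lower. That fit takes the spread of the lone library to be like that of the others. With the GC correction there were 2 higher and 2 lower, where 35.2% of genes with a GC value were called higher and 34.3% lower (69.5% in all).

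**Figure D1:**
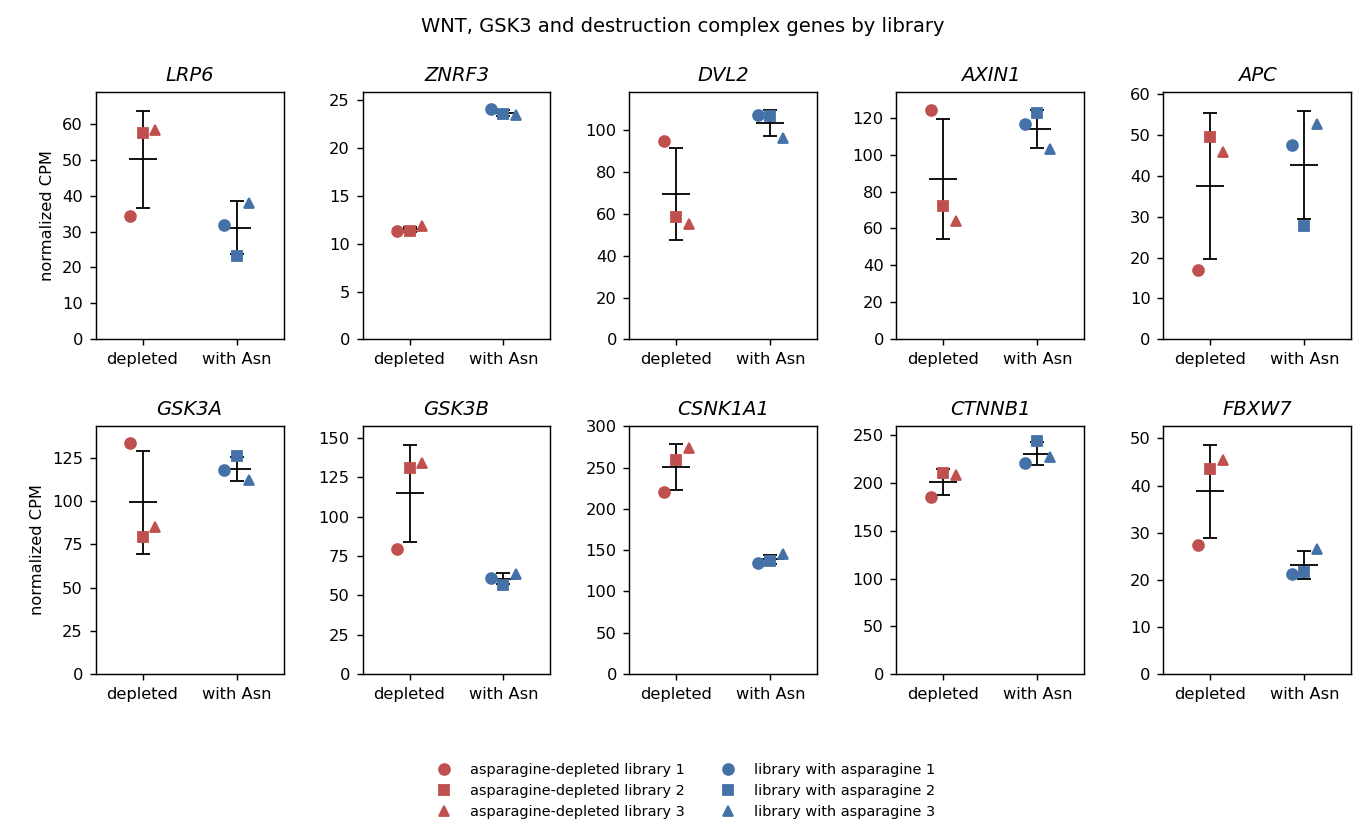
Normalized CPM (vertical axes, from 0) of the 10 genes in each library, with asparagine-depleted libraries on the left and libraries with asparagine on the right of each panel; black bars are means ± SD (n = 3 each). Depleted library 1 (circles) lay apart from depleted libraries 2 and 3 for most genes, whereas ZNRF3 had 11.3 to 11.8 CPM in all 3 depleted libraries.

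Per kilobase of exon, the levels of the 10 genes fell into a high and a low set. The exon length used is the union of the protein-coding transcripts in GENCODE 29. With depletion, CSNK1A1 had 34.5 ± 3.84 CPM per kilobase, CTNNB1 25.6 ± 1.74, GSK3A 25.2 ± 7.54, AXIN1 23.5 ± 8.81 and DVL2 22.1 ± 6.97 (SD, n = 3). With asparagine, these genes had 19.1 ± 0.735, 29.3 ± 1.54, 30.2 ± 1.74, 30.8 ± 2.73 and 32.9 ± 1.99 CPM per kilobase in the same order of genes. CTNNB1, GSK3A, AXIN1 and DVL2 lay close together, with neighbours in the order differing by about their SDs or less in both arms. In the group means, CSNK1A1 stood above these 4 with depletion and below them with asparagine. In depleted library 1, however, CSNK1A1 was below GSK3A and AXIN1 per kilobase. GSK3B stood between the sets, at 14.5 ± 3.90 CPM per kilobase with depletion and 7.66 ± 0.428 with asparagine. The low set held FBXW7, LRP6, APC and ZNRF3, at 5.62 ± 1.44, 4.90 ± 1.33, 3.33 ± 1.58 and 1.65 ± 0.0420 CPM per kilobase with depletion. With asparagine these 4 had 3.35 ± 0.428, 3.03 ± 0.723, 3.78 ± 1.17 and 3.40 ± 0.0435 CPM per kilobase, levels that their SDs do not separate.

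ZNRF3 is a membrane ubiquitin ligase that removes Frizzled and LRP6 from the cell surface, and it is itself a WNT target gene. It lies on the plus strand of chromosome 22 (28883592 to 29057487, GRCh38). ZNRF3 had 11.4, 11.3 and 11.8 CPM in depleted libraries 1, 2 and 3, against 24.0, 23.6 and 23.5 CPM with asparagine. Every depleted library was far below every library with asparagine, the libraries of each arm lay close together, and the groups did not overlap. The log2 fold change of ZNRF3 was -0.98 (SE 0.12, 95% interval -1.26 to -0.71, limma adjusted p = 0.00107), on 368 to 484 reads per depleted library and 855 to 1177 reads with asparagine. It was -0.98 without depleted library 1 (adjusted p = 4.82e-06) and -0.999 with depleted library 1 as the only depleted one (adjusted p = 0.000257). The GC correction lessened it to -0.45 (limma adjusted p = 0.0775). With that correction and without depleted library 1 it was -0.21 (adjusted p = 0.0508). The value was -0.998 in a fit with the libraries' GC slopes as covariate (limma adjusted p = 9.57e-06). The ZNRF3 transcripts have a GC content of 60.6%. An antisense gene, ZNRF3-AS1, overlaps the locus, and no strand setting is stated for the counting, so reads of the pair cannot be told apart.

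LRP6 is the WNT co-receptor whose tail recruits AXIN1 when it is phosphorylated. It lies on the minus strand of chromosome 12 (12116025 to 12267012). BCL2L14, a protein-coding gene on the plus strand, overlaps the locus, and no strand setting is stated for the counting. LRP6 had 34.4, 57.5 and 58.3 CPM in depleted libraries 1, 2 and 3, against 31.8, 23.2 and 38.0 CPM with asparagine. Depleted libraries 2 and 3 were above every library with asparagine, and depleted library 1 lay among them. The log2 fold change was 0.66 (SE 0.27, 95% interval 0.03 to 1.29) and did not pass the test (limma adjusted p = 0.0734). Without depleted library 1 it was 0.91 and passed (adjusted p = 0.000474). With the GC trend removed it was 0.55 (adjusted p = 0.058), and a fit with the libraries' GC slopes as covariate gave 0.07 (adjusted p = 0.695). LRP5, the closely related co-receptor, fell 2.30-fold, to 69.7 ± 29.2 CPM with depletion against 160.1 ± 16.8 with asparagine (adjusted p = 0.0094).

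The ratio of LRP6 to LRP5 within a library, which does not depend on how the library was scaled, was 0.332, 1.09 and 1.10 in depleted libraries 1, 2 and 3, against 0.183, 0.140 and 0.269 with asparagine. The groups did not overlap. The mean log2 ratio was 1.92 higher with depletion, and 1.21 higher with the GC trend removed. The exact two-sided permutation test gave p = 0.1, the smallest that 3 against 3 libraries allow, and 0.2 adjusted over the 8 gene pairs compared. The RNAs of these relatives differ in base composition where they encode the same amino acids. The stretches below, 90 bases of coding exon 6 from each (GENCODE 29 transcripts), carry 30 codons for identical residues. They are shown because the libraries differed along GC content. Capitals mark the 22 bases that differ, and the GC content is 47.8% in the LRP6 stretch (chr12:12181114-12181203, minus strand) and 68.9% in the LRP5 stretch (chr11:68386552-68386641, plus strand).
LRP6: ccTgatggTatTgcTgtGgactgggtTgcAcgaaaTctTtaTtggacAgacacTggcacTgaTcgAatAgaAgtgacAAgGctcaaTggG
LRP5: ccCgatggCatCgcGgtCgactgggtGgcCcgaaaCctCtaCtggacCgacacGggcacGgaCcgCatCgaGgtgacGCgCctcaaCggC

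DVL2 is one of the Dishevelled proteins, which carry the signal from Frizzled to the destruction complex. It lies on the minus strand of chromosome 17 (7225341 to 7234545). DVL2 had 94.8, 58.6 and 55.4 CPM in depleted libraries 1, 2 and 3, against 107, 107 and 96.3 CPM with asparagine. All depleted values were lower, but depleted library 1 was close to the lowest library with asparagine. The log2 fold change of -0.61 (SE 0.22, 95% interval -1.12 to -0.09) did not pass (limma adjusted p = 0.0515). It was -0.85 without depleted library 1 and then passed (adjusted p = 4.76e-06), and -0.08 with the GC trend removed (adjusted p = 0.167). The relatives DVL1 and DVL3 had 73.6 ± 36.0 and 191 ± 37.9 CPM with depletion against 114 ± 9.08 and 225 ± 12.6 with asparagine, and neither passed (adjusted p = 0.0842 and 0.217). The ratio of DVL2 to DVL3 was 0.404, 0.342 and 0.331 in the depleted libraries against 0.457, 0.465 and 0.456 with asparagine (exact permutation p = 0.1).

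AXIN1 is the limiting scaffold of the destruction complex, and APC, a tumor suppressor lost in colorectal cancer, binds beta-catenin beside it. AXIN1 lies on the minus strand of chromosome 16 (287440 to 352673). It had 124, 72.2 and 64.2 CPM in depleted libraries 1, 2 and 3, against 116, 122 and 103 CPM with asparagine. Depleted library 1 was the highest of all 6, and depleted libraries 2 and 3 were the lowest. AXIN1 had a log2 fold change of -0.44 (SE 0.25, 95% interval -1.04 to 0.15, limma adjusted p = 0.174). Without depleted library 1 it was -0.73 (adjusted p = 4.18e-05), and with the GC trend removed the direction turned, at 0.13 (adjusted p = 0.0942).

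APC lies on the plus strand of chromosome 5 (112707498 to 112846239). The protein-coding gene AC008575.1 overlaps it on the same strand, so reads of the pair may not be cleanly separated. APC had 17.0, 49.5 and 45.9 CPM in depleted libraries 1, 2 and 3, against 47.5, 27.7 and 52.7 CPM with asparagine. Depleted library 1 was the lowest of all, library 2 with asparagine was the next, and the other 4 lay together between 45.9 and 52.7 CPM. The log2 fold change of APC was -0.27 (SE 0.44, 95% interval -1.30 to 0.77, limma adjusted p = 0.621), 0.21 without depleted library 1 (adjusted p = 0.388) and -0.73 with the GC trend removed (adjusted p = 0.0435). A fit with the libraries' GC slopes as covariate gave -1.35 (adjusted p = 6.19e-05). With the GC trend removed and without depleted library 1, APC had -0.46 (adjusted p = 0.0382). APC2, its relative, had 13.6 ± 4.72 CPM with depletion against 12.7 ± 2.13 with asparagine (adjusted p = 0.876).

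GSK3A and GSK3B are near-identical kinases in their catalytic part, and both act in the destruction complex. GSK3A lies on the minus strand of chromosome 19 (42230186 to 42242625) and GSK3B on the minus strand of chromosome 3 (119821323 to 120094417). The protein-coding gene AC006486.1 overlaps GSK3A on the same strand, so reads of that pair may not be cleanly separated. GSK3B had 79.2, 131 and 134 CPM in depleted libraries 1, 2 and 3, against 61.1, 56.8 and 63.5 CPM with asparagine. All depleted libraries were higher, and libraries 2 and 3 exceeded depleted library 1 by more than that library exceeded the controls. GSK3B rose 1.90-fold, with a log2 fold change of 0.88 (SE 0.22, 95% interval 0.36 to 1.39, limma adjusted p = 0.0154). It was 1.12 without depleted library 1 (adjusted p = 5.24e-07), 0.39 with it as the only depleted library (adjusted p = 0.0233), and 0.60 with the GC trend removed (adjusted p = 0.00226). The call was lost at adjusted p = 0.0588 and 0.0511 without depleted library 2 or 3, and at 0.0562 and 0.0632 without library 1 or 2 with asparagine.

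GSK3A did not follow GSK3B in depleted libraries 2 and 3. Its values were 134, 79.5 and 85.1 CPM in depleted libraries 1, 2 and 3, against 118, 126 and 112 CPM with asparagine. Depleted library 1 was the highest of the 6, and depleted libraries 2 and 3 were the lowest. The log2 fold change of GSK3A was -0.29 (SE 0.21, 95% interval -0.79 to 0.20, limma adjusted p = 0.267). Without depleted library 1 it was -0.52 (adjusted p = 0.000136), and it turned to 0.08 with the GC trend removed (adjusted p = 0.359). When the libraries' GC slopes were a covariate, GSK3A had 0.19 and GSK3B 0.36 (limma adjusted p = 0.0376 and 0.00104).

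The ratio of GSK3A to GSK3B within a library, in CPM, was 1.69, 0.607 and 0.635 in depleted libraries 1, 2 and 3, against 1.93, 2.22 and 1.77 with asparagine. Depleted libraries 2 and 3 were far below the libraries with asparagine, and depleted library 1 was just below the lowest of them. The mean log2 ratio differed by -1.17, depleted minus with asparagine, and by -0.52 with the GC trend removed (exact permutation p = 0.1, adjusted over 8 pairs 0.2). In coding exon 6 of both kinases, a stretch of 90 bases encodes the same 30 residues with 12 differing bases, in capitals. Its GC content is 56.7% in GSK3A (chr19:42234369-42234458, minus strand) and 48.9% in GSK3B (chr3:119912720-119912809, minus strand), and the whole coding sequences have 60.8% and 46.5% GC.
GSK3A: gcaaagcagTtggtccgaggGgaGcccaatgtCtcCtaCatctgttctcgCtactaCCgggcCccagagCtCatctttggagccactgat
GSK3B: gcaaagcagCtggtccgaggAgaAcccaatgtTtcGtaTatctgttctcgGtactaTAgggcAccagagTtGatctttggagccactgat

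**Figure D2:**
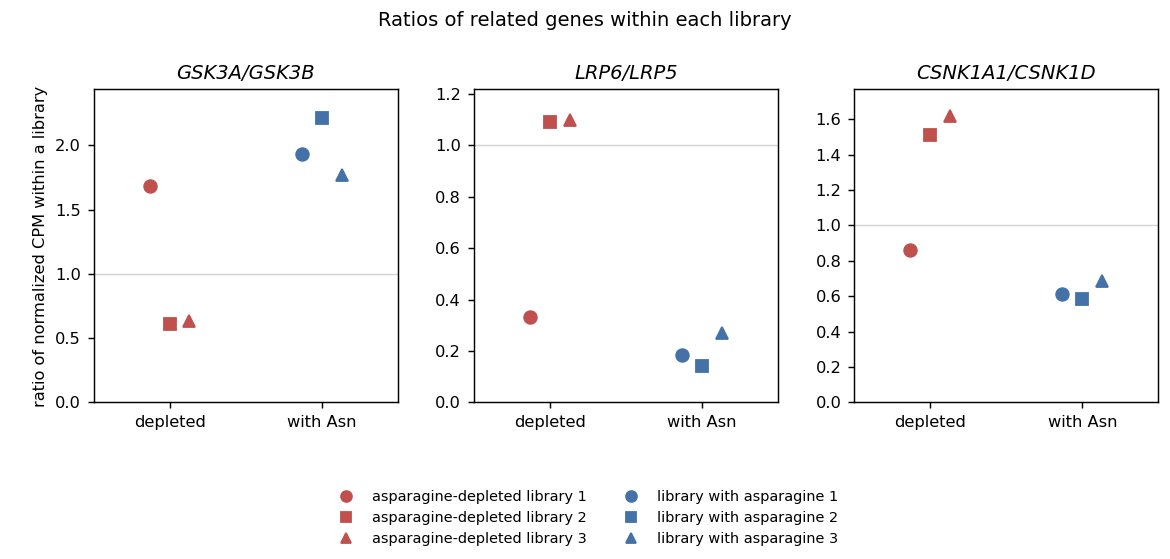
Ratio of normalized CPM of related genes within each library (vertical axes, from 0), with asparagine-depleted libraries left of libraries with asparagine. The groups do not overlap for any of these 3 pairs, and depleted library 1 (circle) is the depleted library nearest to the libraries with asparagine in each.

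CSNK1A1, casein kinase 1 alpha, places the priming phosphate on beta-catenin before GSK3 acts. It lies on the minus strand of chromosome 5 (149492197 to 149551552). CSNK1A1 had 219.8, 259 and 274 CPM in depleted libraries 1, 2 and 3, against 135, 137 and 145 CPM with asparagine. Each depleted library was far above each library with asparagine, depleted library 1 included. It rose 1.81-fold, with a log2 fold change of 0.84 (SE 0.13, 95% interval 0.55 to 1.14, limma adjusted p = 0.00236). The value was 0.93 without depleted library 1 (adjusted p = 7.99e-07), 0.66 with it as the only depleted library (adjusted p = 0.000847), and 0.32 with the GC trend removed, which ended the call (adjusted p = 0.0745). With the GC trend removed and without depleted library 1, the log2 fold change was 0.15 (limma adjusted p = 0.0499). In a fit with the libraries' GC slopes as covariate it was 0.64 (limma adjusted p = 4.73e-06). CSNK1A1 has the lowest transcript GC content of the 10, at 40.3%.

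Casein kinase 1 genes moved in both directions. Of 7 tested, CSNK1A1 included, 3 were higher and 2 lower, with a median log2 fold change of 0.48 against 0.01 for all genes. Among all genes, 25.1% were called higher and 26.2% lower. Leaving out any library but depleted library 1 gave 2 higher, and without depleted library 2 or library 2 with asparagine 1 was lower. CSNK1G3 rose 2.12-fold to 64.2 ± 23.5 CPM against 30.3 ± 6.60 with asparagine, and CSNK1A1L rose 2.13-fold to 7.78 ± 1.93 CPM against 3.64 ± 0.162. CSNK1A1L is a copy of CSNK1A1 without introns, and reads of the pair may not be cleanly separated. CSNK1G2 fell 2.31-fold, to 159 ± 65.4 CPM against 368 ± 25.3, and CSNK1E fell 2.64-fold, to 3.30 ± 2.08 CPM against 8.74 ± 0.809. CSNK1D, which has other roles such as in the circadian clock, had 199 ± 49.2 CPM against 222 ± 11.5 and did not pass (adjusted p = 0.414). The ratio of CSNK1A1 to CSNK1D was 0.861, 1.51 and 1.62 in the depleted libraries against 0.615, 0.584 and 0.684 with asparagine. Its mean log2 difference of 1.03 shrank to 0.05 with the GC trend removed.

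CTNNB1 encodes beta-catenin, the protein the complex destroys. It lies on the plus strand of chromosome 3 (41194741 to 41260096) and overlaps ULK4 on the opposite strand. CTNNB1 had 186, 210.1 and 209 CPM in depleted libraries 1, 2 and 3, against 221, 244 and 227 CPM with asparagine. The depleted values were all lower, by a small margin. CTNNB1 had a log2 fold change of -0.20 (SE 0.11, 95% interval -0.46 to 0.07), which did not pass (limma adjusted p = 0.18). Without depleted library 1 it was -0.14 and did not pass either (adjusted p = 0.0876). After the GC correction it was -0.35 and passed (adjusted p = 0.00099), and it was -0.31 with depleted library 1 as the only depleted one (adjusted p = 0.0347). JUP, or plakoglobin, its closest relative, had 274 ± 87.1 CPM against 384 ± 46.3 (adjusted p = 0.0912), and CTNNA1, alpha-catenin, did not pass either, except with the GC trend removed (-0.32, adjusted p = 0.00400).

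FBXW7 is the substrate-binding subunit of a ubiquitin ligase that degrades MYC, cyclin E and JUN after GSK3 has marked them, and it is a tumor suppressor mutated in T-cell leukemia. It lies on the minus strand of chromosome 4 (152320544 to 152536063), with the antisense gene FBXW7-AS1. FBXW7 had 27.3, 43.4 and 45.5 CPM in depleted libraries 1, 2 and 3, against 21.1, 21.6 and 26.5 CPM with asparagine. The groups did not overlap, although depleted library 1 was only just above library 3 with asparagine. FBXW7 rose 1.68-fold, with a log2 fold change of 0.70 (SE 0.22, 95% interval 0.17 to 1.22, limma adjusted p = 0.0353), and it was 0.39 with the GC trend removed (adjusted p = 0.0135). A fit with the libraries' GC slopes as covariate gave 0.19, which did not pass (adjusted p = 0.115). It passed without depleted library 1 (0.92, adjusted p = 2.47e-05). The call was lost when any other library was left out, at adjusted p = 0.116 and 0.108 without depleted library 2 or 3 and at 0.12, 0.116 and 0.0581 without library 1, 2 or 3 with asparagine. With depleted library 1 as the only depleted one, the log2 fold change was 0.24 (adjusted p = 0.218).

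**Figure D3:**
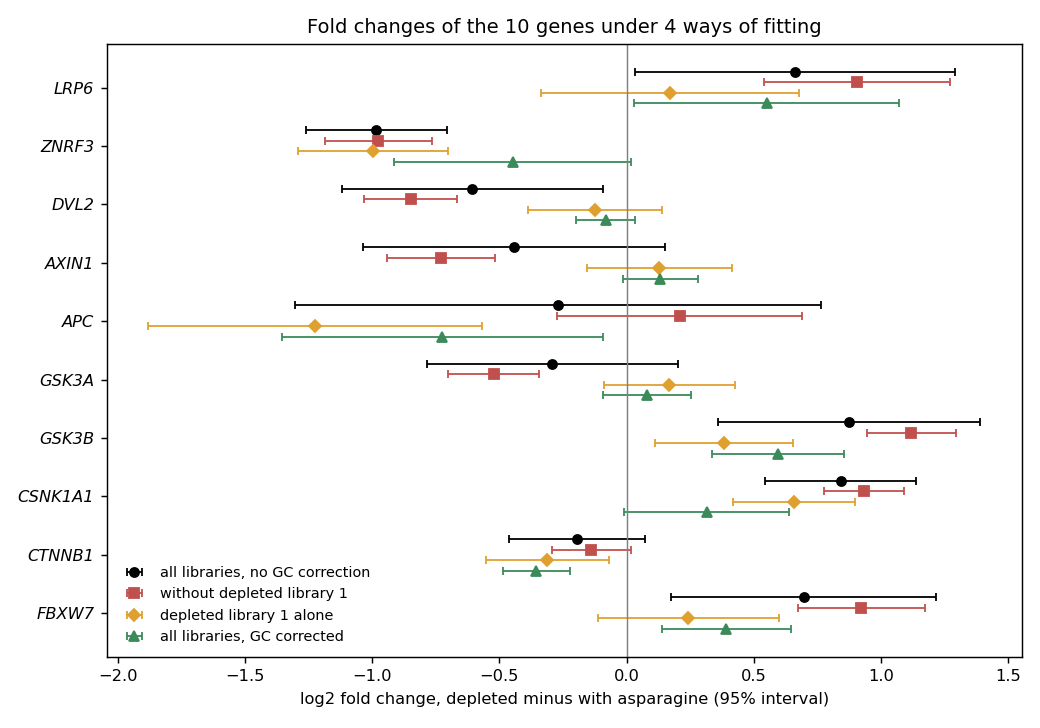
Log2 fold change of each gene, depleted minus with asparagine, with its 95% interval, fitted in 4 ways: all libraries without GC correction (black circles), without depleted library 1 (red squares), depleted library 1 as the only depleted library (yellow diamonds) and all libraries with GC correction (green triangles). ZNRF3 stays near -1 in the first 3 fits and moves to -0.45 with the GC correction, while AXIN1 and GSK3A change direction between fits.

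Across the 10 genes, which share their libraries, the difference of depleted libraries 2 and 3 from the controls followed transcript GC content (Pearson r = -0.87 and -0.87, n = 10 genes). For depleted library 1 the value was -0.17. Of the 10 genes, 5 lay in the 2 lowest GC classes and 4 in the 2 highest. ZNRF3 and CSNK1A1 kept their side and most of their size in depleted library 1, at -0.999 and 0.66 relative to the mean with asparagine. GSK3B had 0.39 there and 1.10 and 1.14 in depleted libraries 2 and 3. Beyond these, depleted library 1 differed most for APC, by -1.23.

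**Figure D4:**
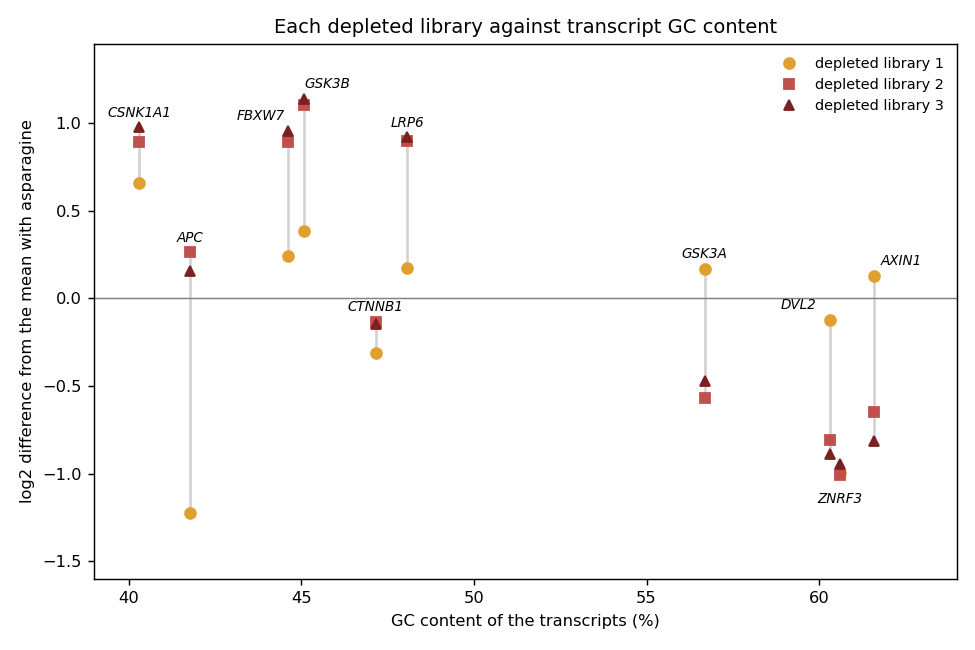
Difference of each depleted library from the mean with asparagine (log2 of CPM + 1, vertical axis) against the median GC content of the gene's transcripts in percent (horizontal axis), with the 3 depleted libraries joined for each gene. Depleted libraries 2 and 3 run from about 1 at low GC content to about -1 at high GC content (r = -0.87), and depleted library 1 does not follow that slope (r = -0.17).

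RefSeq promoter sequences (GRCh38.p14) matched 8 of the 10 genes, with 13 start sites. In the 250 bases before the start, on either strand, neither the TCF/LEF motif CTTTGAT nor the composite element TGATGNAA, bound by ATF4 with C/EBP factors in the amino acid response, occurred in any of the 13. These motifs occur in 2.26% and 3.14% of all 35116 promoters of that length. The E-box CACGTG, bound by MYC and related factors, occurred at 2 of the 13 start sites (APC and DVL2) and in 6.34% of all promoters. A match describes letters and not binding. DVL2 was the only one of the genes with more than 1 match, and its 250 bases (chr17:7234518-7234767, minus strand) are shown for that reason, with the 3 matches in capitals, starting 90, 71 and 24 bases before the start.
DVL2 promoter: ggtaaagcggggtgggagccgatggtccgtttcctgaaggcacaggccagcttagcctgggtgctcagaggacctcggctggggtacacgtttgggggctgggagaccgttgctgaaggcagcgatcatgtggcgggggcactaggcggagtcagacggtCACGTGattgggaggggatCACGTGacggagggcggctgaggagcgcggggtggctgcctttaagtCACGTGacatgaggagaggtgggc

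The genes around the 10 were read from lists by role. The list counts compare with 25.1% of all genes called higher and 26.2% called lower. Without depleted library 1 these shares were 40.5% and 41.3%, and with the GC trend removed 35.2% and 34.3%. Of 21 genes for WNT ligands and their secretion, 3 were in the table. WNT8B was the single ligand and rose, at 2.55 ± 0.275 CPM with depletion against 1.59 ± 0.0941 (limma adjusted p = 0.0231), but it did not pass without depleted library 2 or without any 1 of the libraries with asparagine. WLS, which carries WNT proteins to the cell surface, fell 11.4-fold, to 0.657, 0.399 and 1.34 CPM in depleted libraries 1, 2 and 3 against 7.70, 10.9 and 8.63 CPM with asparagine (adjusted p = 0.000452). Every depleted library was far below each library with asparagine, and the log2 fold change was -2.51, or -2.59 with the GC trend removed. PORCN, which attaches the lipid of WNT proteins, did not pass (4.88 ± 1.63 CPM against 7.16 ± 1.18).

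Receptors and co-receptors were higher in 4 and lower in 5 of 15 tested, with a median log2 fold change of -0.28. With the GC trend removed 4 were higher and 9 lower (median -0.41), and without depleted library 1 the median was -0.09. ROR1, a receptor of WNT5A, had 248, 270 and 305 reads in the depleted libraries against 10, 3 and 5 with asparagine, or 5.82, 8.28 and 8.18 CPM against 0.281, 0.0827 and 0.0996. It was near its floor with asparagine and clearly detected in each depleted library (log2 fold change 2.86, limma adjusted p = 0.000119). FZD7 rose 4.94-fold to 8.06 ± 1.18 CPM against 1.63 ± 0.312 (adjusted p = 0.000457). LGR6, a receptor for R-spondins, fell 2.97-fold to 38.8 ± 9.67 CPM against 115 ± 10.0, and PTK7 fell 2.79-fold to 5.81 ± 1.47 CPM against 16.2 ± 0.735. FZD5 and FZD8 were also lower, and FZD6 and RYK higher. Of 20 inhibitors and turnover genes, 3 were in the table: ZNRF3 and the DKK receptor KREMEN2 fell and APCDD1 rose. The count of 2 lower became 1 when any library but depleted library 1 was left out, and the 1 higher became 0 without library 1 with asparagine. With the GC trend removed, 0 of this list were lower (KREMEN2 0.02, adjusted p = 0.914) and the median was 0.02, against -0.84 without that correction. RNF43, the relative of ZNRF3, and AXIN2, the relative of AXIN1, were not in the deposited table.

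The Dishevelled list had 1 higher and 1 lower of 8 tested. ANKRD6, the homolog of the fly protein Diego and a regulator of Dishevelled, rose in every depleted library, at 29.4, 30.2 and 33.4 CPM against 4.92, 3.64 and 3.89 CPM with asparagine. The rise was 7.47-fold (log2 fold change 2.64, or 2.77 with the GC trend removed, limma adjusted p = 0.000101). CXXC5, which inhibits Dishevelled, fell 2.20-fold to 31.7 ± 8.16 CPM against 69.7 ± 4.46. Without depleted library 1 this list had 1 higher and 6 lower. With the GC trend removed it had 4 higher and 1 lower, and its median log2 fold change turned to 0.18, against -0.39 without that correction.

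Around the destruction complex, 3 of 10 tested were higher and 3 lower (median -0.28). Besides GSK3B and CSNK1A1, GSKIP, a small GSK3-binding protein, rose 1.60-fold to 20.9 ± 4.60 CPM against 13.01 ± 2.80 (limma adjusted p = 0.0489). Leaving out any library but depleted library 1 gave 1 or 2 higher and 2 lower, and leaving out that one gave 3 higher and 5 lower. With the GC trend removed there were 2 higher and 4 lower, and the median turned to 0.11. Other partners of GSK3 or APC fell. AMER1, which brings APC and AXIN1 to the membrane, fell 1.73-fold to 35.8 ± 3.65 CPM against 62.0 ± 2.59. The GSK3 binders FRAT1 and FRAT2 fell to 20.0 ± 7.68 and 49.3 ± 14.3 CPM against 35.4 ± 3.96 and 97.9 ± 7.36 (adjusted p = 0.0299 and 0.0079).

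The ligases and tankyrases that act on beta-catenin or AXIN1 were listed together with USP34 and USP7, which belong to neither kind. Of these 9 genes, 6 were higher and 0 lower, where 25.1% of all genes were called higher. Their median log2 fold change was 0.74, against 0.01 for all genes, and 0.33 with the GC trend removed, where 6 were higher and 1 lower. The count of 6 was 7 without depleted library 1, but 2 and 3 without depleted library 2 or 3 and 3, 2 and 4 without library 1, 2 or 3 with asparagine. By library, the median was 0.32, 0.89 and 0.99 in depleted libraries 1, 2 and 3. SIAH1, a ligase for beta-catenin, rose 2.33-fold to 28.7 ± 8.62 CPM against 12.3 ± 0.551. The tankyrase TNKS2, which marks AXIN1 for turnover, rose 2.01-fold to 178 ± 49.5 CPM against 88.4 ± 10.7. RNF146, the ligase that then degrades AXIN1, rose 1.95-fold to 53.9 ± 8.25 CPM against 27.6 ± 1.82. TNKS, BTRC (beta-TrCP) and FBXW11 were higher as well, and the median transcript GC content of the list was 44.1%, below the 49.9% of all genes.

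**Figure D5:**
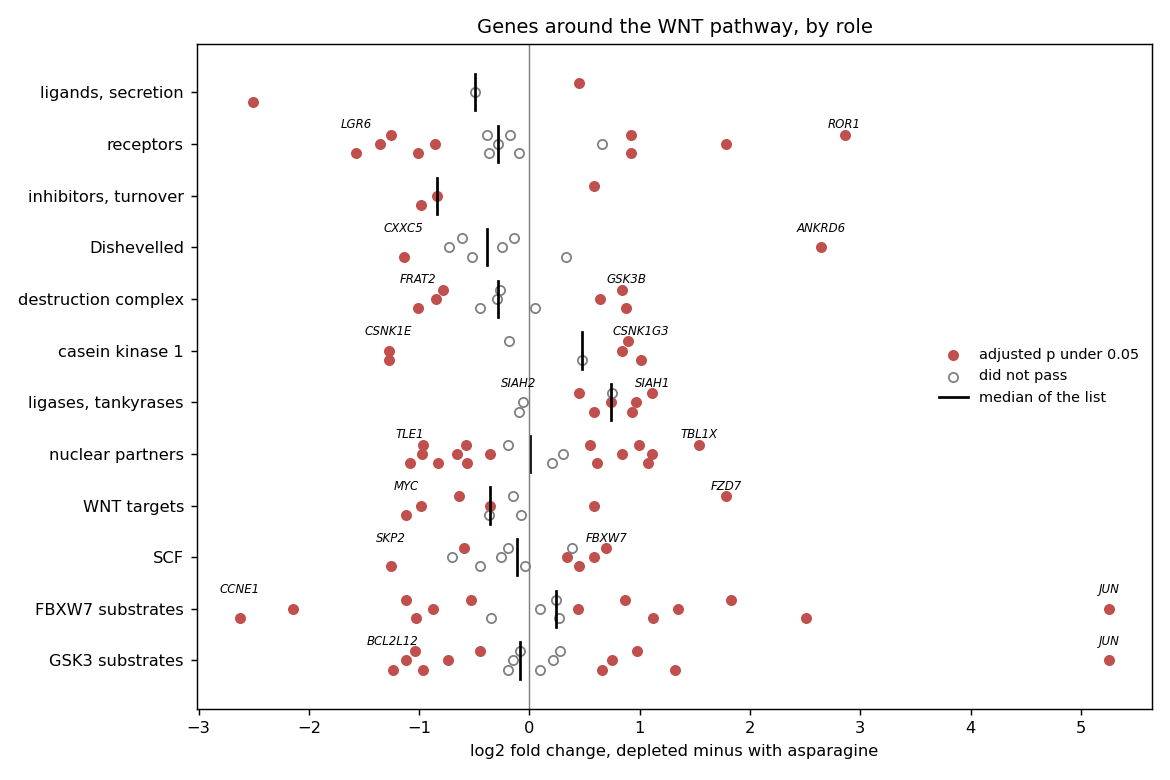
Log2 fold change (horizontal axis, depleted minus with asparagine) of the tested genes of 12 lists by role; filled red points have a limma adjusted p under 0.05, open points did not pass, and black lines are list medians. The extremes of the longer lists are named; JUN is the highest point and CCNE1 the lowest, and some genes stand in more than 1 list.

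In the nucleus, 7 of 18 partners of beta-catenin were higher and 8 lower (median 0.01). TBL1X, a subunit of a corepressor that also binds beta-catenin, rose 2.97-fold, at 90.5, 85.3 and 83.1 CPM in the depleted libraries against 26.9, 30.3 and 30.03 CPM with asparagine (limma adjusted p = 0.000281). The acetyltransferases EP300 and CREBBP, coactivators of beta-catenin, rose 2.17-fold and 1.80-fold, to 403 ± 19.6 and 448 ± 53.1 CPM against 186 ± 10.6 and 249 ± 10.4. Among the DNA-binding factors, TCF7L2 rose 2.05-fold to 36.0 ± 3.92 CPM against 17.6 ± 0.593, while LEF1 fell 1.28-fold to 696 ± 41.1 CPM against 894 ± 28.1 (adjusted p = 0.023). The corepressor TLE1 fell 2.10-fold to 17.8 ± 6.71 CPM against 37.3 ± 2.31. The 8 lower became 4 without depleted library 2 or 3 or library 1 with asparagine, 2 without library 2 with asparagine and 5 without library 3 with asparagine.

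Of 20 WNT target genes, 9 were in the table and tested, with 2 higher and 4 lower. The lower ones were ZNRF3, LEF1, MYC and CD44, and the higher ones FZD7 and APCDD1. CD44, an adhesion receptor, fell 1.56-fold to 30.8 ± 5.30 CPM against 48.0 ± 0.823 (limma adjusted p = 0.0147). The median log2 fold change was -0.36, and LGR5, BIRC5 and SOX4 did not pass. The 4 lower became 2 without any 1 library with asparagine, and the 2 higher became 1 without library 1 with asparagine. These genes answer to many signals besides WNT.

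The genes of proteins that FBXW7 marks for degradation, or that GSK3 phosphorylates, moved both ways. Of 17 tested FBXW7 substrates, 7 were higher and 6 lower (median 0.24). JUN rose to 216 ± 78.1 CPM against 4.46 ± 0.493, KLF2 rose 9.34-fold to 13.5 ± 5.36 CPM against 1.44 ± 0.243, and CCNE1 and CCNE2 fell 7.09-fold and 4.29-fold, to 4.64 ± 1.60 and 12.6 ± 6.39 CPM against 32.9 ± 1.37 and 54.1 ± 9.65. Of 17 tested GSK3 substrates, some of them shared with that list, 5 were higher and 6 lower (median -0.08). The 5 became 3 without depleted library 2 or 3 or library 3 with asparagine, and 2 without library 1 or 2 with asparagine. The 7 higher FBXW7 substrates became 4 without library 2 with asparagine. NFE2L2, the oxidative stress factor NRF2, rose 2.56-fold to 142 ± 33.4 CPM against 55.4 ± 5.82, and GYS1, the glycogen synthase for which GSK3 is named, fell 2.05-fold to 46.9 ± 11.0 CPM against 96.0 ± 10.3. Within the SCF list, in which FBXW7 works, 4 of 12 were higher (FBXW7, BTRC, FBXW11 and FBXW8) and 2 lower. These became 0 higher and 1 lower when any library but depleted library 1 was left out, and 6 and 4 without that one. With the GC trend removed 4 were higher and 6 lower. SKP2, the adaptor that degrades cell cycle inhibitors, fell 2.40-fold to 41.3 ± 7.15 CPM against 98.9 ± 2.36, and RBX1, the ring subunit, fell to 60.3 ± 13.4 CPM against 90.1 ± 1.96 (limma adjusted p = 0.0255), while the scaffold CUL1 and the adaptor SKP1 did not pass.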

How the data were processed

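RNA-seq libraries of RS4;11 cells, 3 asparagine-depleted and 3 with asparagine, were processed by the authors with FastQC, STAR and featureCounts of Subread on GRCh38, per the submitters' processing notes. Not given in the sources used here are the versions, the annotation, the strand setting and the scaling. The authors' deposited values are a scaled signal per gene, named normalized CPM, and no further value columns were present. Within 1e-06 of a read, 100% of the values were whole multiples of 1 step per library, which gave the read numbers. A value of 3 reads is 0.0598 to 0.0920 CPM, and such counts carry a large counting error. Columns were matched to samples by arm and replicate number, since their names are not the titles.

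Genes that reached 1 CPM in 3 or more libraries (11892) were fitted as log2(CPM + 1) in limma 3.58.1 (R 4.3.3) with group as the only term and an intensity trend. P-values are two-sided and Benjamini-Hochberg adjusted over all genes at 0.05. Fold values are ratios of mean CPM. GC content is the median over protein-coding transcripts in GENCODE 29 (95.4% of genes had a value), and the GC correction removed a lowess trend (span 0.3) from each library. The fit was tested on simulated data that held no GC trend and no library that stood apart. Same-numbered libraries deviated together for 1 of the 3 numbers, so no pairing was used. The members, the lists and the alternatives were chosen with earlier results of these data known. Named genes are the members and their relatives, up to 4 called genes per list with at least 5 CPM, and the genes of counts of 5 or fewer, except among the GSK3 substrates, where an item is not reported here. CREBBP, and genes named as not passing (PORCN, LGR5, BIRC5, SOX4, CUL1, SKP1), were chosen after their values were seen.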

Additional observations from a re-analysis of the deposited data

How the results depend on the processing

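Results for the 10 genes depended on depleted library 1 and on the GC correction. Leaving out 1 library at a time gave 1728 to 4812 higher and 1814 to 4913 lower genes among all tested, 1 to 4 higher and 1 to 4 lower members, and 21 to 58 higher and 23 to 58 lower among the 130 tested genes of all lists together. At a threshold of 0.01 these were 1612 and 1703 of all genes, 1 higher member (CSNK1A1) and 1 lower, and 18 and 24 listed genes. There were 2 lower members under trimmed-mean or median-ratio rescaling and with the replicate block (DVL2 then passed), 2 after the GC correction with or without depleted library 1, 3 when the GC slope was a covariate and 3 with depleted library 1 as the only depleted one. The replicate block gave 2824 higher and 2989 lower genes, and same-numbered libraries correlated at 0.083, -0.65 and 0.69, so the numbers were not taken as pairs. GSK3A turned to 0.079 after the GC correction, with and without the block, 0.19 with the GC slope (adjusted p = 0.0376), 0.17 with depleted library 1 only, and 0.015 with the correction and without that library. AXIN1 turned to 0.13, 0.18 (adjusted p = 0.047), 0.13 and 0.10 in the same settings, and APC to 0.21 without depleted library 1 (-0.55 to 0.21 over the libraries left out). Among ratios, APC/APC2 turned to 0.41 without depleted library 1 (-0.71 to 0.41 over the libraries left out), and DVL2/DVL1 and CTNNB1/JUP to -0.10 and -0.49 after the GC correction. The cause was not tested. ZNRF3 and CSNK1A1 kept their calls in 20 and 21 of 23 settings, all but those with a GC correction (CSNK1A1 passed in 1 of those). With the GC slope as covariate instead, they kept their calls at -0.998 and 0.64. Voom weights on recovered reads, added after the data were seen, moved the median of all genes by 0.14. The count models listed as alternatives were not run. A change in total RNA per cell cannot be seen in scaled values.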

Other observations

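Protein phosphatase 2A counters GSK3 and casein kinase 1 on several pathway proteins, and its subunits did not move as one. Of 12 tested, 3 were higher and 2 lower in depleted cells (median log2 fold change 0.29), and without depleted library 1 there were 9 higher and 2 lower. After the GC correction 3 were higher and 5 lower, and the median turned to -0.16. Of all genes, 25.1% were called higher and 26.2% lower. Without depleted library 1 these shares were 40.5% and 41.3%, and after the GC correction 35.2% and 34.3%. The 3 higher became 2 without depleted library 2 or 3 or library 2 with asparagine and 1 without library 1 or 3 with asparagine. The scaffold PPP2R1A fell 1.99-fold, to 225 ± 52.6 CPM with depletion against 449 ± 41.4 with asparagine (SD, n = 3 each, limma adjusted p = 0.00457). Of the B56 targeting subunits, PPP2R5D fell 2.34-fold to 38.3 ± 8.12 CPM against 89.6 ± 3.62, whereas PPP2R5A rose 1.90-fold to 131 ± 20.0 CPM against 69.2 ± 2.92 and PPP2R5B rose 1.76-fold to 11.3 ± 2.995 CPM against 6.44 ± 0.516. These 4 kept their direction after the GC correction, with log2 fold changes of -0.67, -0.97, 0.41 and 1.30. PPP2CB, a catalytic subunit, rose to 26.2 ± 0.614 CPM against 18.8 ± 2.53 (adjusted p = 0.0297), and after the GC correction it did not pass (adjusted p = 0.221).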
